A study of Homo sapiens with 8 samples.

Results

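Vitronectin (VTN), urokinase (PLAU), the urokinase receptor (PLAUR), tissue-type plasminogen activator (PLAT) and protease nexin-1 (SERPINE2) were chosen by name from the genes of the plasminogen activator system, and they make up 5 of the 58217 genes to which quantified transcripts could be assigned. All 5 passed the filter on low counts. Their mRNA was measured by strand-specific sequencing of polyA RNA in oligodendrocyte progenitor cells (OPCs) grown from the human embryonic stem cell line H9. The cells carried no forced SOX10 expression and were kept for 2 days in OPC medium on dishes coated with 1 of 3 substrates. Matrigel, a basement membrane extract of mouse tumour tissue and the study's control substrate, had 2 libraries (replicates 2 and 3). VN, the recombinant full-length vitronectin protein, and VNP2, an engineered vitronectin peptide that holds the RGD cell-binding motif and is joined to a mussel adhesive protein, had 3 libraries each (replicates 1 to 3). All libraries come from a single cell line, and nothing in the labels says whether replicates were separate differentiations or parallel wells, so the p-values measure only the spread between these libraries.

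Urokinase and tissue-type plasminogen activator are serine proteases that cut plasminogen, a zymogen from plasma, into plasmin, which degrades fibrin and many matrix proteins. Urokinase works mostly at the cell surface, where its glycolipid-anchored receptor holds it, and that receptor also binds vitronectin, whereas integrins recognise the RGD motif of vitronectin. In the nervous system tissue-type activator and protease nexin-1, a serpin that blocks thrombin, urokinase and tissue-type activator, are known from migrating neural cells and from synaptic plasticity.

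Each library held between 37997896 and 39429453 estimated counts. Replicate 1 on VN stood apart from the other 2 VN libraries, with a median chi-square of 2.09 and 2.07 per gene against 1.25 between the others (0.455 under counting error alone). Among 8 OPC markers 7 passed the filter, and SOX10, with at most 5 estimated counts in a library, did not. All 6 floor plate and all 8 mesenchymal cell markers passed too, among them SHH, NTN1, COL1A2 and DCN, so markers of other cell types stood beside those of OPCs. The 6 microglial markers were all too low to test, as were GFAP and AQP4 of the astrocyte list and PECAM1 and VWF of the endothelial list. In bulk RNA of this kind, fewer cells of a type and less RNA per cell cannot be told apart.

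The largest differences among the 5 genes concerned PLAU, so the bases before its 2 RefSeq start sites are shown first. PLAU lies on chr10:73909177-73917497 on the plus strand (ENSG00000122861, GENCODE v29 on GRCh38). The windows below are reference sequence from RefSeq (GRCh38.p14, plus strand, 5′ to 3′) and end at the base before the first annotated exon in them, and capitals mark GC boxes (GGGCGG) and CCAAT boxes on either strand.
PLAU start used here, chr10:73910882-73911103: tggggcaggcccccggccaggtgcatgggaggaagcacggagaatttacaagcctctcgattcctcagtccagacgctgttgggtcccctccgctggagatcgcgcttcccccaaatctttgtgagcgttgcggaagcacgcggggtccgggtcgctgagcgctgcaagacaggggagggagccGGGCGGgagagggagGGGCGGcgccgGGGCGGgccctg
PLAU upstream start, chr10:73910360-73910604: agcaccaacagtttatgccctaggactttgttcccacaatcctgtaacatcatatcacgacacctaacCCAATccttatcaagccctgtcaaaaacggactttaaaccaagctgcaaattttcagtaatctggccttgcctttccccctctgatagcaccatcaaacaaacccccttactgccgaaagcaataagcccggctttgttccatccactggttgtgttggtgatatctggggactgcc
The 222 bases of the downstream window held 3 GC boxes and no CCAAT box, whereas the 245 bases of the upstream window held 1 CCAAT box and no GC box. Over 35116 RefSeq promoters, 42.64% had a GC box and 32.01% a CCAAT box within the 250 bases before the start. Neither window, read to its full 250 bases, matched the AP-1 motif TGANTCA, the TEAD motif GGAATG, the SMAD motif CAGACA or the TATA box TATAAA on either strand, which says only that those letters are not there. Nearly all PLAU reads were assigned to transcripts that begin beyond the downstream window, which is all that its label as the start used here means. Start sites themselves were not mapped. PLAU-203, which begins at 73909177, upstream of both windows, held 18 estimated counts. The main coding transcript of PLAU begins at position 73911157 and held 2272 of the 2364 estimated counts of the gene, while PLAU-205, the transcript that begins at 73910605, next to the upstream window, held 0 in all 8 libraries. PLAU-205 is only 160 bases long, so its 0 does not show whether the upstream start was used.

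VTN mRNA itself was estimated at a low level that did not differ detectably between substrates. VTN lies on chr17:28367276-28373091 on the minus strand (ENSG00000109072) and encodes the plasma and matrix glycoprotein that liver cells secrete in bulk. Normalized counts, which are estimated counts scaled for library size and transcript length, were 29.9 and 36.8 for Matrigel, 30.3, 29.3 and 33.1 for VN and 37.3, 24.7 and 29.7 for VNP2. All 3 groups overlapped. The log2 fold change was -0.12 ± 0.26 (SE) on VN and -0.12 ± 0.26 on VNP2 against Matrigel, with an adjusted p of 0.81 for each (edgeR's quasi-likelihood test with Benjamini-Hochberg adjustment over 18201 genes, as for every adjusted p below unless another tool is named). With 25 to 40 estimated counts per library, the 95% interval was -0.70 to 0.46 for VN against Matrigel and -0.70 to 0.45 for VNP2, so changes within those bounds are compatible with these values. The full-length coding transcript of VTN held 248.6 of the 252 estimated counts. SARM1, a gene on the opposite strand that spans the VTN locus, stood at 23.8 to 28.6 TPM (a level per transcript length, scaled to the same total in each library) in the same libraries against 0.66 to 0.998 TPM for VTN. Another gene on the opposite strand that spans the VTN locus, AC002094.1, held 229.6 estimated counts, at 0.58 to 2.62 TPM. The kit marks the strand, but the strand setting of the counting is not given in the sources used here. The part of reads from SARM1 and AC002094.1 in the VTN counts was not tested. Among liver markers, HNF4A reached at most 2 estimated counts in a library, TTR at most 9, and the 6 hepatocyte markers together summed to 3.72 to 4.21 TPM on Matrigel, 1.89 to 2.68 on VN and 2.35 to 3.81 on VNP2.

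PLAU was several times lower on both vitronectin substrates than on Matrigel, and lower on VN than on VNP2. Normalized counts were 705 and 739 on Matrigel (mean 722 ± 23.7 SD, n = 2), 114, 112 and 110.0 on VN (112 ± 1.93, n = 3), and 242, 183 and 157 on VNP2 (194 ± 43.7, n = 3). No library of any group reached the range of another group, and the VN libraries lay within a few counts of each other while the VNP2 libraries were spread more widely. The fold change from Matrigel was 6.44-fold lower on VN (log2 -2.69 ± 0.15 SE, adjusted p = 1.5e-06) and 3.72-fold lower on VNP2 (log2 -1.90 ± 0.14, adjusted p = 8.5e-06). PLAU was 1.73-fold higher on VNP2 than on VN (log2 0.79 ± 0.15, 95% interval 0.464 to 1.116, adjusted p = 0.011). PLAU was among the genes that the study singled out on these same libraries, so its direction is not independent evidence. On VN, 1558 genes whose normalized counts averaged at least 100 were lower than on Matrigel at adjusted p under 0.05, and 7 of them had a lower log2 fold change than PLAU. On VNP2 this was so for 30 of 1474.

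The difference between VNP2 and VN rested partly on a short transcript. The main coding transcript stood at 12.3 and 13.5 TPM on Matrigel, at 2.24, 2.26 and 2.28 on VN, and at 4.01, 2.86 and 2.85 on VNP2. PLAU-203, a short coding model of 468 bases, was estimated at 0.81 and 0.23 TPM on Matrigel, at 0 in every VN library, and at 0.74, 0.73 and 0.24 TPM on VNP2, from 18 estimated counts in all. It made up 15.1%, 19.6% and 7.5% of the TPM of the gene on VNP2. Without the correction for transcript length, which gives such a short model more weight, PLAU was still higher on VNP2 than on VN, with a log2 fold change of 0.58 (adjusted p = 0.035). Without replicate 1 on VNP2, the highest of its group, the log2 fold change was 0.60. C10orf55, which overlaps PLAU on the opposite strand, held only 16 estimated counts in all libraries together.

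**Figure D1:**
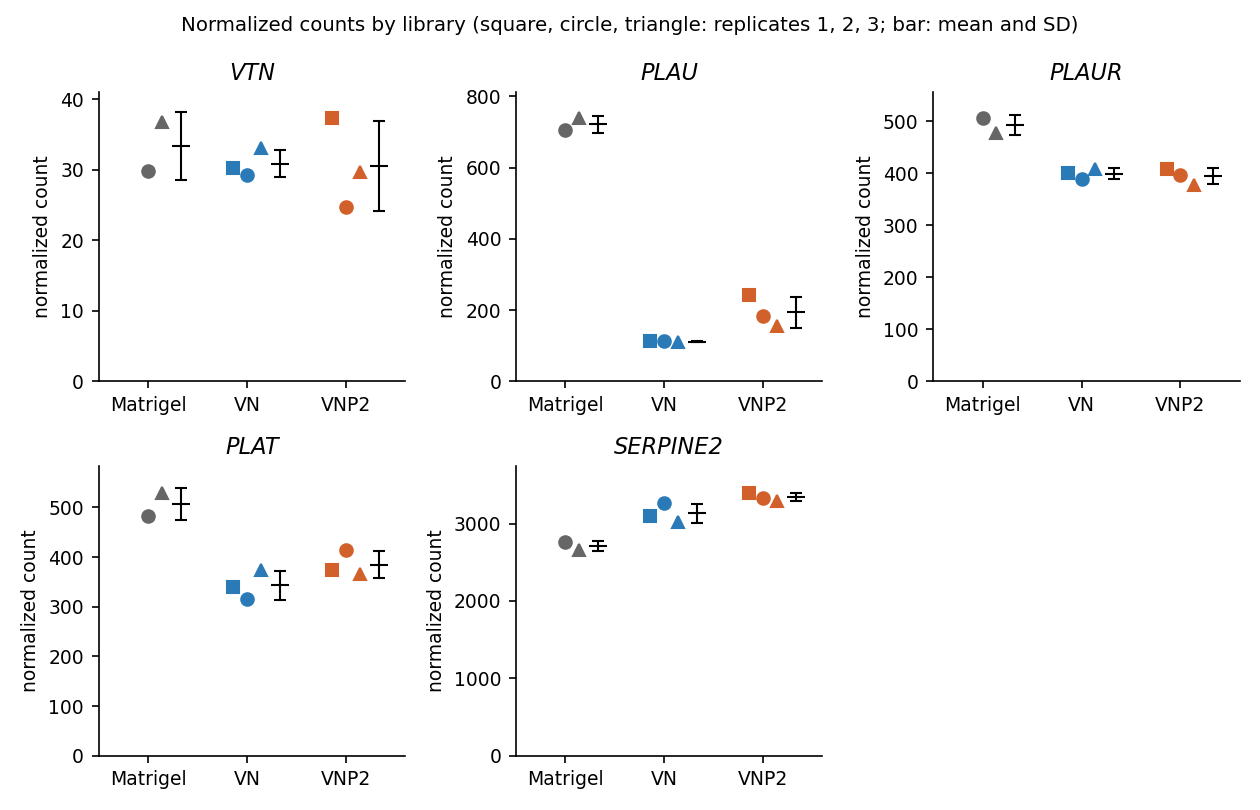
Normalized counts (y axis, from 0) of the 5 genes in each library, by substrate (x axis); squares, circles and triangles are replicates 1, 2 and 3, and the bar beside them is the mean with its SD. PLAU stood at 705 and 739 on Matrigel and at most at 242 elsewhere, SERPINE2 was lowest on Matrigel, and VTN overlapped between all groups.

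PLAT, the other plasminogen activator, was lower on both vitronectin substrates too, by a smaller factor. PLAT lies on chr8:42175233-42207724 on the minus strand (ENSG00000104368). Normalized counts were 484 and 530.0 for Matrigel, 340.3, 316 and 374 for VN and 373, 415 and 366 for VNP2. Both Matrigel libraries lay above all others, and the VN and VNP2 libraries overlapped. PLAT was 1.48-fold lower on VN (log2 -0.56 ± 0.10, adjusted p = 0.0036) and 1.32-fold lower on VNP2 (log2 -0.40 ± 0.10, adjusted p = 0.017) than on Matrigel. A difference between VNP2 and VN was not detected in these libraries, with a log2 difference of 0.16 and a 95% interval from -0.03 to 0.36 (adjusted p = 0.35). The call on VNP2 was lost without replicate 3 on Matrigel (log2 -0.33, adjusted p = 0.15), without replicate 1 on VNP2 (adjusted p = 0.056) and without replicate 3 on VNP2 (adjusted p = 0.064). How the counts were shared among transcripts varied as much within as between substrates: PLAT-203 made up 62.1%, 42.9% and 21.9% of the gene's TPM in the 3 VN libraries, so no transcript is singled out. PLAT is also made by endothelial cells, and of the 4 endothelial markers that passed the filter CDH5 (log2 -1.92 on VN and -1.60 on VNP2) and TEK (log2 -0.99 and -1.36) fell on both substrates while KDR and CLDN5 did not pass the test. The 6 endothelial markers summed to 19.8 to 21.2 TPM on Matrigel, 21.1 to 24.7 on VN and 21.3 to 22.4 on VNP2, and PECAM1 and VWF reached at most 9 and 11 estimated counts in a library. Their part in the PLAT result was not tested.

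PLAUR, the receptor that holds urokinase at the cell surface, was slightly lower on both vitronectin substrates. PLAUR lies on chr19:43646095-43670547 on the minus strand (ENSG00000011422). Its normalized counts were 505 and 478 for Matrigel, 399.7, 389 and 409 for VN and 408, 396 and 378 for VNP2. Again both Matrigel libraries were the highest, and VN and VNP2 could not be separated. The receptor was 1.23-fold lower on VN (log2 -0.30 ± 0.08, adjusted p = 0.023) and 1.25-fold lower on VNP2 (log2 -0.32 ± 0.07, adjusted p = 0.015). Between VNP2 and VN the log2 difference was -0.02, with a 95% interval from -0.17 to 0.13. The call on VN was lost under DESeq2 (adjusted p = 0.052), in a fit of the VN and Matrigel libraries alone (0.055), and without either Matrigel library (0.16 without replicate 2, 0.072 without replicate 3) or replicate 2 on VN (0.066). That on VNP2 was lost without replicate 2 (0.13) or 3 (0.052) on Matrigel and without replicate 3 on VNP2 (0.060). PLAUR-203, the main coding transcript, made up 44.6% to 51.7% of the gene's TPM in every library, and PLAUR-207, a shorter coding model, 21.0% to 34.8%.

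SERPINE2 was the only one of the 5 genes that was higher on the vitronectin substrates. SERPINE2 lies on chr2:223975112-224039319 on the minus strand (ENSG00000135919). Normalized counts were 2756 and 2662 for Matrigel, 3096, 3271 and 3022 for VN and 3399.9, 3335 and 3289 for VNP2. The 3 groups did not overlap, in the order Matrigel, VN, VNP2. SERPINE2 was 1.15-fold higher on VN (log2 0.21 ± 0.05, adjusted p = 0.013) and 1.23-fold higher on VNP2 (log2 0.30 ± 0.05, adjusted p = 0.0012) than on Matrigel. The step from VN to VNP2 (log2 0.09 ± 0.04) did not pass the adjusted threshold, at an unadjusted p of 0.040 and an adjusted p of 0.23. The call on VN was lost without replicate 2 (adjusted p = 0.055) or replicate 3 (adjusted p = 0.12) on Matrigel. SERPINE2-202 carried 50.2 to 67.6 TPM, and the slightly longer coding transcript that begins at position 224039319 carried 8.91 to 15.4 TPM.

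Counted together, 4 of the 5 genes changed across the 3 substrates, where 19.3% of all genes tested did. Against Matrigel, 3 genes were lower on VN (9.41% of all genes were) and 1 was higher (5.81%), and the same numbers held on VNP2, where 9.13% of all genes were lower and 7.45% higher. Between VNP2 and VN, 1 gene was higher on VNP2 (3.07% of all genes) and none was lower (2.1%). Libraries did not overlap for 4 of 5 genes between VN and Matrigel and for 4 of 5 between VNP2 and Matrigel, where 44.4% and 48.1% of all genes did not, and for 2 of 5 between VNP2 and VN (23.5%). The 2 comparisons against Matrigel share its 2 libraries. With replicate 2 or replicate 3 on Matrigel left out, a single Matrigel library remained. Fewer of the 5 genes were then called on both substrates, and fewer of all genes tested as well.

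**Figure D2:**
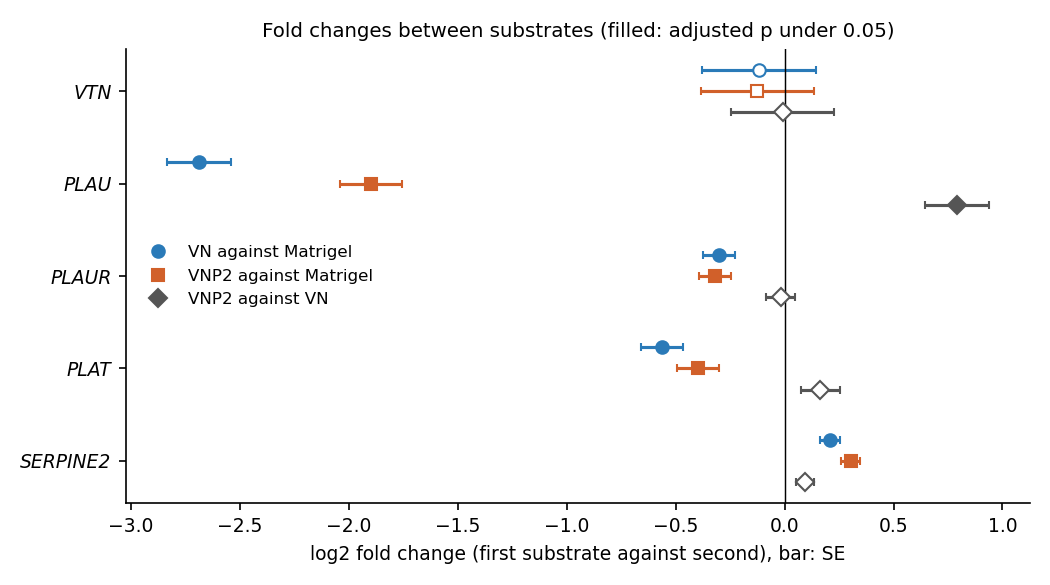
Log2 fold changes (x axis) with their SE for the 5 genes (y axis) in the 3 comparisons of substrates; filled symbols passed an adjusted p of 0.05 in edgeR's quasi-likelihood test. PLAU (-2.69 and -1.90) lay far to the left of the other genes against Matrigel, and only PLAU passed between VNP2 and VN.

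Levels per transcript length gave the order of the genes within a library. SERPINE2 was the highest in all 8 libraries, at 61.3 to 63.2 TPM on Matrigel, 73.8 to 80.0 on VN and 79.3 to 81.7 on VNP2, PLAUR was the next at 16.4 to 20.8 TPM, and VTN was the lowest. Over all genes tested, the mean TPM of SERPINE2 was at percentile 87.4, that of PLAUR at 57.6, PLAT at 41.5, PLAU at 38.4 and VTN at 14.4. The order of the 2 activators depended on the substrate. On Matrigel PLAU stood at 13.7 and 14.4 TPM and PLAT at 8.45 and 9.30, so that PLAU was 1.62 and 1.55 times PLAT. On VN the ratio was 0.37, 0.39 and 0.33, and on VNP2 0.72, 0.49 and 0.48, so PLAT was the more abundant activator mRNA in all 6 libraries on vitronectin substrates. SERPINE2, whose protein blocks both activators, was 2.86 and 2.59 times the sum of PLAU and PLAT on Matrigel, 8.71, 9.76 and 8.002 times on VN and 6.96, 7.08 and 8.005 times on VNP2. Both Matrigel libraries lay far below the other 6, and the ranges on VN and VNP2 met at their ends. These ratios are of mRNA levels and carry no test.

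**Figure D3:**
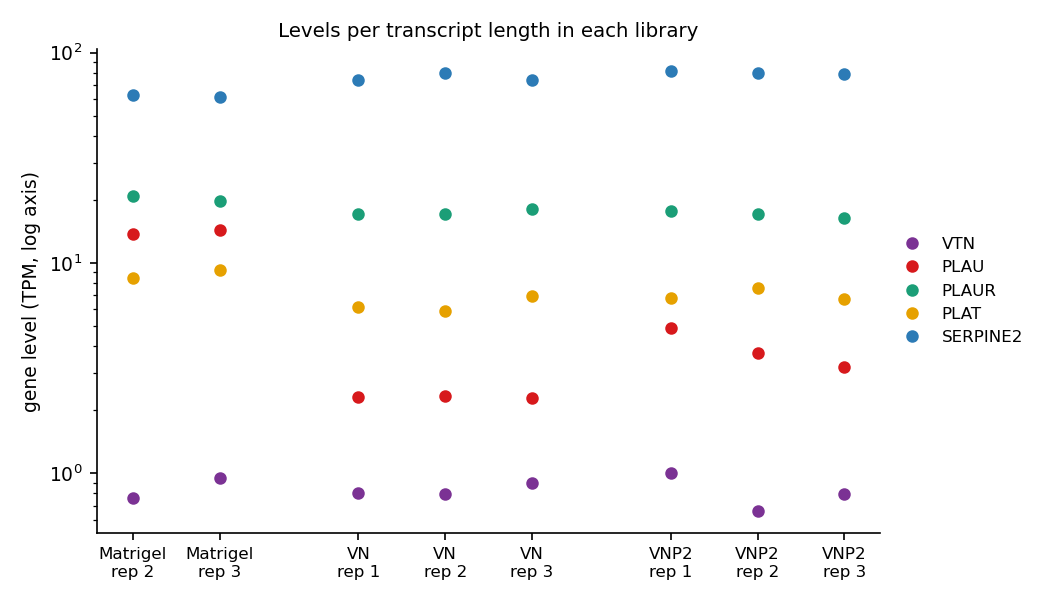
Levels in TPM (y axis, log scale) of the 5 genes in each library (x axis, grouped by substrate). SERPINE2 was at the top and VTN at the bottom throughout, and PLAU lay above PLAT on Matrigel (13.7 and 14.4 against 8.45 and 9.30 TPM) and below it in all libraries on VN and VNP2.

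**Figure D4:**
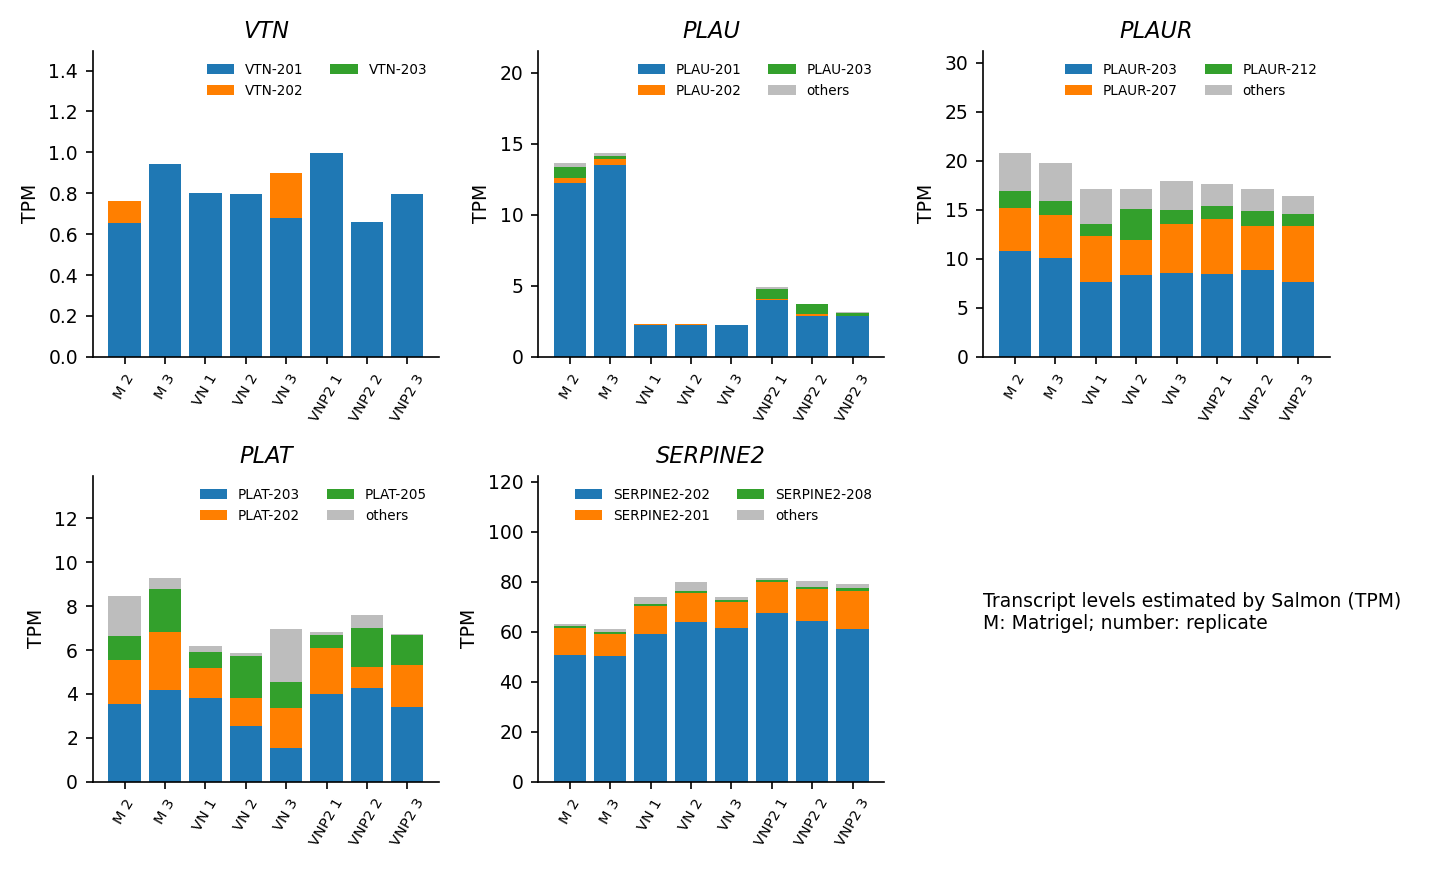
Stacked bars of the TPM of the 3 most abundant transcripts of each gene and of its other transcripts (y axis, from 0) in each library (x axis; M, Matrigel). The main coding transcript of PLAU made up at least 76.9% of its TPM in every library and SERPINE2-202 was the main transcript of SERPINE2, whereas the parts of PLAT changed from library to library.

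Around the 5 genes, 51 other genes of the system were described by role, and 37 of them passed the filter. On VN 14 were lower and 2 higher than on Matrigel (9.41% and 5.81% of all genes tested), and on VNP2 13 were lower and 2 higher (9.13% and 7.45%). Between VNP2 and VN 4 were higher and 4 lower (3.07% and 2.1%). The median log2 fold change over the 37 genes was -0.27 on VN and -0.19 on VNP2, against 0.0083 and 0.0030 over all genes tested. Without replicate 1 on VN the counts were 17 lower and 2 higher on VN and 16 lower and 2 higher on VNP2. Calls rose over all genes as well. Of 18124 genes then tested, 2334 were lower and 1577 higher on VN, and 2036 lower and 1617 higher on VNP2. With all libraries these numbers were 1712, 1058, 1661 and 1356 of 18201. Without either Matrigel library fewer genes of the system were called on both substrates, as among all genes tested. The filter passed 38 of the genes without replicate 2 on Matrigel. Plasminogen itself (PLG) was too low to test, with 3 to 9 estimated counts per library, and so were the upstream proteases KLKB1 and F11. F12 and HABP2 were tested and not called, so no tested protease gene besides PLAU and PLAT passed the test.

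Among the 7 tested genes listed with PLAUR under receptors for plasminogen and its activators, 4 were lower on VN and 5 on VNP2, and none was higher. ANXA2 and S100A10, whose proteins form the cell surface complex that binds plasminogen and tissue-type activator, had the lowest log2 fold changes of those called on each substrate. SRPX2, which binds the urokinase receptor, stood at a log2 of -0.58 on VN (adjusted p = 0.066) and -0.595 on VNP2 (adjusted p = 0.061) and did not pass. Normalized counts of ANXA2 were 16380 and 16815 with Matrigel, 8198, 8083 and 7881 with VN, and 5752, 5437 and 5266 with VNP2. S100A10 had 1289 and 1227 for Matrigel, 842, 958 and 915 for VN and 556, 606 and 588 for VNP2. In both genes the 3 groups were fully separated, with VNP2 the lowest, which is the reverse of the order of VN and VNP2 in PLAU. ANXA2 fell by 1.04 (log2) on VN and by 1.60 on VNP2, and differed by -0.55 between VNP2 and VN (adjusted p = 4.2e-05). S100A10 fell by 0.48 on VN and by 1.11 on VNP2, and differed by -0.63 between VNP2 and VN (adjusted p = 3.9e-04). ENO1, a glycolytic enzyme that also binds plasminogen at the cell surface, fell by 0.32 and 0.27, and MRC2, which joins urokinase and its receptor in a complex, by 0.16 and 0.20. IGF2R, which binds the urokinase receptor, fell by 0.13 on VNP2, its log2 fold change of -0.06 on VN did not pass, and neither did the difference between VNP2 and VN (-0.07). LPA was too low to test.

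Among the 6 other tested inhibitors described here, 2 were lower and 1 higher on VN, and 1 was lower and 1 higher on VNP2. SERPINI1 (neuroserpin, an inhibitor of tissue-type activator in the nervous system) rose by a log2 of 0.95 on VN and 0.96 on VNP2, from 267 and 281 normalized counts on Matrigel to 383 to 682 in the other 6 libraries. Without the correction for transcript length the log2 fold change of SERPINI1 was 0.51 on VN and 0.69 on VNP2, both called. SERPINB8, an intracellular serpin, was lower on both (log2 -0.75 and -0.75). A2M, which traps plasmin and other proteases, was lower on VN (log2 -2.02, adjusted p = 2.4e-04) and 1.35 (log2) higher on VNP2 than on VN (adjusted p = 0.0055), while its value on VNP2 against Matrigel (log2 -0.67, adjusted p = 0.063) did not pass. SERPINF2, the main plasmin inhibitor of plasma, was higher on VNP2 than on VN (log2 0.79, adjusted p = 0.033) and was called in neither comparison with Matrigel. SERPINB2, a urokinase inhibitor, had no counts in any library, nor had SERPIND1, and SERPINC1, PZP and CPB2 were too low to test.

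Of the 6 genes listed for the clearance of protease and serpin complexes from the cell surface, VLDLR was lower on both substrates (log2 -0.57 on VN and -0.78 on VNP2), SORL1 on VN (log2 -0.19) and LRP2 on VNP2 (log2 -0.47, and -0.31 against VN). LRP1, the chief clearance receptor for the urokinase receptor complex, did not pass (log2 -0.15 and -0.16). Among 7 tested genes of the thrombin system, F2RL1 (a receptor cleaved by trypsin-like proteases) fell by 1.36 on VN and 1.53 on VNP2, and F2R, the main thrombin receptor, by 0.16 and 0.19. TFPI, the inhibitor of the tissue factor pathway, fell by 0.67 on VN, stood at -0.05 on VNP2, and was 0.63 higher on VNP2 than on VN (adjusted p = 0.0027). F2 and F2RL3 were too low to test.

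Of 9 tested plasmin substrates and vitronectin partners, 3 were lower and 1 higher on each substrate than on Matrigel. FN1, fibronectin, moved in opposite directions: its normalized counts were 33000 and 32085 with Matrigel, 44408, 41419 and 41355 with VN, and 25620, 25497 and 25675 with VNP2. Its log2 fold change was 0.38 on VN and -0.35 on VNP2, and the direct difference between VNP2 and VN was -0.73 (adjusted p = 2.7e-06). The vitronectin-binding integrin subunits ITGAV (log2 -0.31 and -0.28) and ITGB1 (log2 -0.34 and -0.34) were lower on both. ITGB5, the partner of ITGAV in a vitronectin receptor, was lower on VN (log2 -0.43) and 0.34 higher on VNP2 than on VN (adjusted p = 0.0055). MET, the receptor of the plasmin- and urokinase-activated growth factor HGF, was higher on VNP2 than on Matrigel (log2 0.34, adjusted p = 0.033), while FGA, FGB and FGG were too low to test. Some of these calls were lost under several of the 16 alternatives: IGF2R on VNP2 was called in 6, SORL1 on VN in 5, MRC2 in 9 on VN and 12 on VNP2, MET on VNP2 in 11 and SERPINF2 between VNP2 and VN in 11. SERPINI1 and SERPINB8 on both substrates and F2R on VN lost their calls without either Matrigel library and under no other alternative, while F2R and ITGAV on VNP2 lost theirs without replicate 2 on Matrigel alone.

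**Figure D5:**
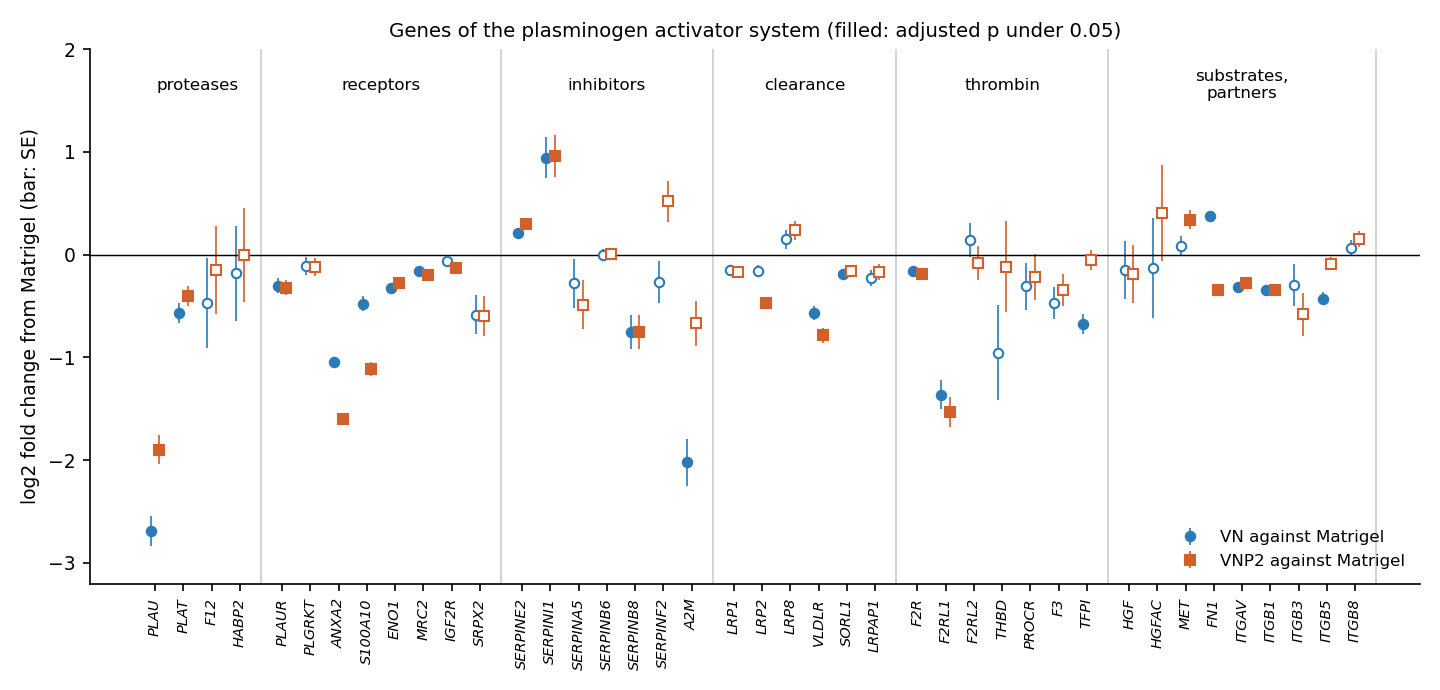
Log2 fold change from Matrigel (y axis, with SE) on VN (circles) and VNP2 (squares) for each described gene of the system that passed the filter, grouped by role (x axis); filled symbols passed an adjusted p of 0.05. PLAU, A2M, ANXA2 and F2RL1 reached the lowest values, SERPINI1 the highest, and FN1 was called in opposite directions on the 2 substrates.

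Among genes whose normalized counts averaged at least 100, the profiles nearest to each of the 5 over the 8 libraries were found by the root mean square difference of log2 counts, each centred on its own mean. For PLAU they were FOSL1 (0.25), an AP-1 family transcription factor, APLN (0.29), which encodes the peptide apelin, and PDGFB (0.29), a growth factor chain. The mean normalized count of FOSL1 was 348 with Matrigel, 80.9 with VN and 108 with VNP2. None of 12995 genes came within 0.2 of the PLAU profile, whose own root mean square was 1.06. The nearest profiles to PLAT were HDAC9 (0.062), RCAN1 (0.063) and SNX18 (0.070), with 30 genes within 0.1. Near PLAUR lay IGFBP2 (0.031) and CNN3 (0.033), and SERPINE2 had TRIM46, GSPT2 and TMEM38B (0.022 to 0.038). Many genes came near, with 1285 within 0.1 of PLAUR and 1292 within 0.1 of SERPINE2. The profiles of PLAUR and SERPINE2 had a root mean square of 0.14 and 0.12, little above that limit. The limits were the same for every gene, so the numbers within them depend on how large a profile is. LGI2, GUSBP9 and ZBTB48 were nearest to VTN (0.065 to 0.084), at its 25 to 40 estimated counts per library. The likeness is over 8 libraries that fall into 3 substrates, and it carries no test.

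Markers of the other cells in the cultures moved with the substrates as well. The 8 OPC markers summed to 223 to 226 TPM on Matrigel, 289.9 to 304 on VN and 318 to 341 on VNP2, with 3 of 7 tested markers higher on VN and 6 of 7 on VNP2. PTPRZ1 held the largest part of that sum. Its mean normalized count was 0.79 times that in the authors' table, and that of SOX6 0.52 times, against 0.999 to 1 for the 5 genes. The sum is thus incomplete for these 2 markers. The 8 mesenchymal markers summed to 512 to 521 TPM with Matrigel, 579 to 616 with VN and 501 to 536 with VNP2. Of these COL1A1 fell by 0.53 and 1.41 (log2) and PRRX1 by 0.40 and 0.58, whereas COL1A2, DCN and LUM rose on both substrates. The 6 neuron markers summed to 656 to 694, 717 to 782 and 773 to 789.9 TPM, and the 6 floor plate markers to 449.8 to 457, 457 to 469.5 and 533 to 552 TPM. Most of the neuron sum was TUBB3, at 533 to 562 TPM on Matrigel, 527 to 596 on VN and 556 to 583 on VNP2. TUBB3 was called in no comparison. Of the 6 neuron markers 3 were higher on VN and 4 on VNP2, and none was lower. The 6 pluripotent cell markers summed to 435.9 to 449 TPM on Matrigel, 462 to 509 on VN and 441 to 482 on VNP2. Most of that sum was SOX2, at 345 to 353 TPM on Matrigel, 383 to 427 on VN and 364 to 402 on VNP2. SOX2 was called in no comparison. Of the others LIN28A fell by 0.56 and 0.67 (log2), and DPPA4 rose by 0.18 on VNP2. POU5F1 fell by 1.26 on VNP2 and differed by -1.56 between VNP2 and VN. Of the 4 hepatocyte markers tested, AFP, at 2 to 32 estimated counts per library, fell by 2.23 and 2.72. The part of cell composition in the results for the 5 genes was not tested.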

How the data were processed

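Per the labels and the study's methods, polyA RNA of H9-derived OPCs was sequenced in paired ends from TruSeq Stranded libraries, trimmed with Trim Galore and quantified by the authors with Salmon on GENCODE v32 transcripts (GRCh38.p13 in the processing notes). The deposited files hold, per transcript and library, estimated counts and TPM values, together with transcript lengths, and a further deposited table gives normalized counts per gene, a signal that the authors scaled by DESeq2 (version 1.27.12) size factors after tximport. Estimated counts were summed per gene with the GENCODE v29 annotation (205225 of 226608 transcripts matched, 58217 genes, 98.8% to 98.9% of the counts) and rounded to whole numbers. The filterByExpr function (count of at least 10, total of at least 15) left 18201 genes, which were normalized by TMM with offsets for average transcript length, and tested with edgeR 4.0.16 (R 4.3.3) by the quasi-likelihood method over all 8 libraries with substrate as the only term. Two-sided p-values were adjusted by the Benjamini-Hochberg method over the genes tested, and genes under 0.05 were called. The procedure was tested on simulated data.

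Total estimated counts were 37997896 to 39429453 per library, which sets the counting error of low genes such as VTN. The alternatives were DESeq2 1.42.0, limma 3.58.1 on log2 of the deposited normalized counts plus 1 (minimum mean 10), RLE normalization, no filter, at least 50 counts in every library, no length offsets, a replicate block, the libraries of a pair alone, and each library left out in turn. Named were the 5 genes, every listed gene of the system that was called in any test or too low to test, and the 3 genes of nearest profile to each of the 5. The genes, lists and tests were chosen with earlier results of these data known. A listed gene and a gene of near profile are not reported here, and the first is left out of the counts over the lists. Replicate 1 of Matrigel and protein sequences were not analysed here.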

Additional observations from a re-analysis of the deposited data

How the results depend on the processing

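PLAU kept its direction and its call in all 3 comparisons of substrates under all 16 alternatives each. With a replicate block the number of genes called was 3990 across substrates, 3405 on VN, 3155 on VNP2 and 1167 between VNP2 and VN (3517, 2770, 3017 and 942 without it), and it changed no call of the 5 genes. Deviations from group means correlated from -0.11 to 0.14 between libraries with the same number. Between libraries with unlike numbers the range was -0.17 to 0.18. With group means of 2 or 3 libraries, this does not settle whether the numbers pair them. Without length offsets the log2 difference between VNP2 and VN turned to 0.11 for VTN and 0.061 for PLAUR, neither called. PLAUR on VN lost its call with the pair alone (log2 -0.30) and under DESeq2 (log2 -0.30). With each library left out in turn, the genes called ranged from 1881 to 4981 across substrates, from 1184 to 3911 on VN, from 1611 to 3653 on VNP2 and from 544 to 1979 between VNP2 and VN (1979 without replicate 1 on VN). The number of the 5 genes called ranged from 2 to 4 across substrates, on VN and on VNP2. Of the 37 other genes of the system, 8 to 18 were called on VNP2. The log2 fold changes ranged from -0.254 to 0.039 (VTN on VN), -0.293 to 0.033 (VTN on VNP2), -0.18 to 0.12 (VTN, VNP2 against VN), -0.34 to -0.26 (PLAUR on VN), -0.36 to -0.28 (PLAUR on VNP2), -0.044 to 0.013 (PLAUR, VNP2 against VN), -0.46 to -0.33 (PLAT on VNP2) and 0.18 to 0.23 (SERPINE2 on VN). VTN has no value under the minimum of 50 counts. The cause of these losses was not tested, beyond the single remaining Matrigel library when the other is left out, which is then assumed to vary like the other groups.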
